A study of Mus musculus with 31 samples.

Results

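Retinoic acid synthesis and breakdown was followed through 9 of the 39179 genes in the counts of a mouse melanoma study: *Stra6*, *Dhrs3*, *Aldh1a1*, *Aldh1a7*, *Aldh1a2*, *Aldh1a3*, *Cyp26b1*, *Crabp1* and *Rarb*. The set was picked by the higher counts of *Aldh1a1*, *Aldh1a7* and *Cyp26b1* with drug in these same libraries, and the untreated groups are the base of that rise, so every difference in those 3 genes is a description without a test. The other 6 belong to the same pathway. Retinoic acid is made from vitamin A: cells take up retinol, oxidize it reversibly to retinal, and oxidize retinal irreversibly to retinoic acid, which P450 enzymes of the CYP26 family then inactivate. The acid acts through nuclear receptors, the retinoic acid receptors paired with retinoid X receptors, whose targets include genes of the pathway itself. In skin it is known for its control of keratinocyte differentiation, and retinoids slow the growth of many melanoma lines in culture.

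The study treated melanomas of the mouse line 20967 with clobetasol propionate, a synthetic glucocorticoid (GC), and asked what the glucocorticoid receptor (GR) of the tumor cells contributes. The line comes from C57BL/6 mice with the alleles Nras+LSL-G12D;Tyr::CreERT2+/o, in which the Cre driven by the tyrosinase promoter opens the mutant *Nras* in melanocytes. Its GR knockout (GRKO) derivative was made by CRISPR/Cas9 editing of *Nr3c1*, the GR gene. Reads from transcript 3′ ends were counted per gene in 20 tumors and 11 cultures.

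The 4 tumor groups held 5 tumors each, parental or GRKO cells grown in the skin of wild-type C57BL/6 mice whose own cells keep GR. Their mice received 0.05% clobetasol propionate ointment 3 times a week or a control cream. The 4 culture groups were parental cells with DMSO (3 cultures) or GC (2) and GRKO cells with DMSO (3) or GC (3). The treatment label gives the culture dose as 10 µM, whereas the library names and the series design give 1 µM. The labels give no mouse age and no treatment time. The labels name 1 GRKO line, and the methods describe colonies grown from single edited cells, so effects of GR loss and differences of that clone from the parental line cannot be told apart.

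Total counts were 15528066 to 26386770 per tumor and 14441166 to 22463188 per culture. Levels are given as CPM, counts scaled to library size with edgeR's TMM factors, separately for tumors and cultures, and a count of 3 corresponds to 0.114 to 0.193 CPM in a tumor and 0.134 to 0.208 CPM in a culture. Such floors, and the counting intervals given with ratios, cover counting error only. Libraries named after the word without were left out 1 at a time. Genes with at least 0.5 CPM in at least 3 samples were tested, 15919 in tumors, 12525 in cultures and 16273 in a joint fit of all 31 libraries that compares tumors with cultures. A gene was called changed at an adjusted p under 0.05 over all genes tested and a fold change of at least 1.5. All 9 members passed the filter in tumors and 6 in cultures, where *Aldh1a2*, *Stra6* and *Rarb* did not pass. These 3 entered the joint fit through the tumors alone, so a difference from cultures was built into their selection. *Dhrs3* passed in cultures only with the help of the parental DMSO cultures, where it is highest, so it is described without a test among cultures. The same holds for *Dhrs3* where an effect in tumors is set against an effect in cultures.

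Genes known to respond to glucocorticoids mostly followed the treatment labels. *Klf9* had a log2 fold change with GC of 1.51 (SE 0.29, adjusted p = 0.00824 from edgeR) in parental tumors and 1.25 (SE 0.28, adjusted p = 0.0134 from edgeR) in GRKO tumors. In cultures its log2 fold change was 1.91 (SE 0.29, adjusted p = 0.00888 from edgeR) in parental cells and -0.23 (SE 0.26, adjusted p = 0.976 from edgeR) in GRKO cells. With all cultures these values differed by 2.14 (SE 0.39, adjusted p = 0.0523 from edgeR), and without parental GC culture 1 the rise in parental cells did not pass (log2 fold change 1.72, adjusted p = 0.111 from edgeR). *Tsc22d3* and *Per1* were called with GC in both tumor genotypes and in parental cells, and their GC effects in parental and GRKO cells differed by 3.14 (SE 0.27, adjusted p = 0.000332 from edgeR) and 3.00 (SE 0.37, adjusted p = 0.00415 from edgeR). *Zbtb16* was at 9.45 and 9.99 CPM in the parental GC cultures and at 0 in the other 9 cultures, but was not called with GC in parental or GRKO tumors (adjusted p = 0.178 and 0.343 from edgeR). DESeq2 called it in parental tumors (adjusted p = 0.0378 from DESeq2), where every GC tumor lay above every control. *Fkbp5* was called with GC in GRKO tumors and in parental cells, there not with the replicate block (adjusted p = 0.0653 from edgeR), the compared groups alone (adjusted p = 0.0614 from edgeR) or in 4 of 5 fits that left out a culture. In parental tumors it was not called (adjusted p = 0.183 from edgeR) but passed without replicate 2 with GC (log2 fold change 1.26, adjusted p = 0.0472 from edgeR), which at 38.6 CPM lay below every control. That tumor was apart from the other 4 of its group in *Tsc22d3* as well, which was at 181 CPM in it against 346 CPM or more in the others and at most 89.1 CPM in control tumors. GRKO control tumor 4 stood apart too, with a mean chi-square per gene of 252 to 439 against the others of its group, which had 72.4 to 155 among themselves. Each call of a member or named pathway gene that uses GRKO control tumors held without it. By the same measure parental GC tumors 2 and 4 had 130 to 230 against tumors 1, 3 and 5, which had 30.0 to 33.6 among themselves. Parental DMSO culture 2 had 70.5 and 83.3 against cultures 1 and 3, which had 8.60 between them. GRKO GC culture 1 had 74.7 and 128 against cultures 2 and 3, which had 32.3 between them. The *Nr3c1* reads come from the transcript end, outside the edited site, and do not check the knockout.

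The samples labelled melanoma held few transcripts of the melanocyte lineage. Over *Mitf*, *Sox10*, *Pmel*, *Dct*, *Tyr*, *Tyrp1* and *Mlana* the summed level was 25.7 to 55.9 CPM in tumors, mostly *Mitf*, with *Tyr* at 0 in all 20. In cultures it was 3.10 to 11.9 CPM, and *Sox10*, *Dct*, *Tyr* and *Mlana* were at 0 in all 11. None of the 5 lineage genes tested in tumors was called by edgeR with GC or between the genotypes of control tumors, and *Mitf* was lower in GRKO than parental DMSO cultures.

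**Figure D1:**
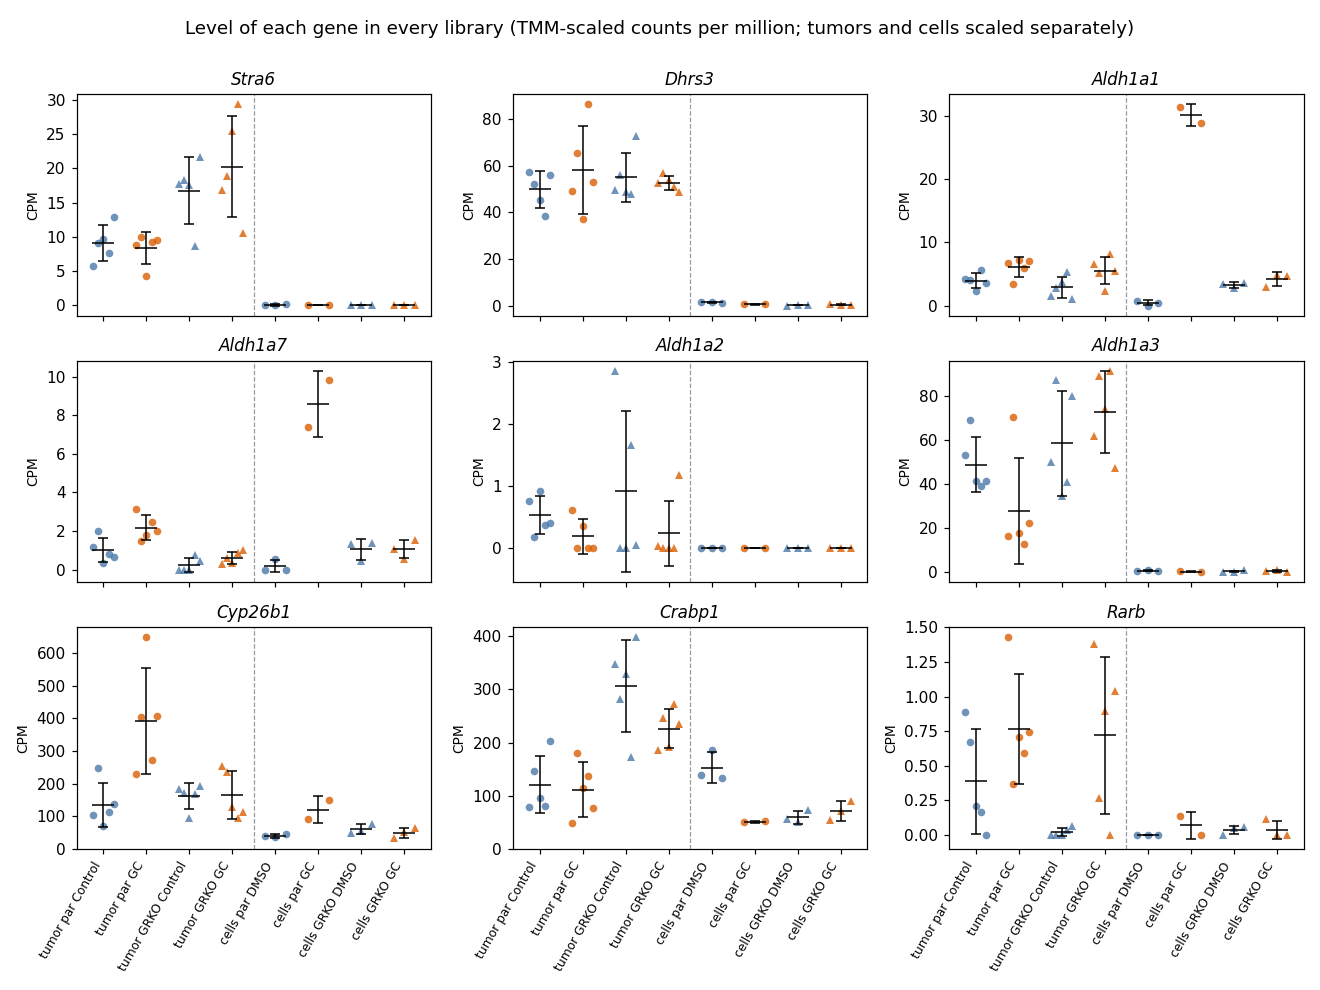
Level of each of the 9 genes (vertical axis, CPM) in every library, by group along the horizontal axis. Each point is 1 tumor or culture, blue for control cream or DMSO and orange for GC, circles for parental and triangles for GRKO, with bars for the group mean ± SD. The dashed line separates tumors from cultures, whose CPM were scaled separately. *Cyp26b1* lay at 228 to 648 CPM in parental GC tumors and at 71.6 to 253 CPM in the other 3 tumor groups.

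Calls among the members were few in tumors with GC. In parental tumors edgeR called 0 of the 6 members outside the picking, against 0.779% of all genes, and DESeq2 called 0. An unadjusted p under 0.05 was found for 1 of them, against 14.1% of all genes. In GRKO tumors 1 of the 6 was called, *Rarb*, against 6.42% of all genes. The difference between the GC effects of parental and GRKO tumors gave 0 of 6 in edgeR, against 0.195% of all genes, and 0 in DESeq2. For 2 of the 6 the unadjusted p was under 0.05, against 20.1% of all genes. None of these counts is read as a result about the set, since the drug comparison is the one by which it was picked. Between GRKO and parental control tumors 1 of the 6 was called, *Crabp1*, where 2.25% of all genes were.

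In cultures 2 members are left to test, *Aldh1a3* and *Crabp1*. In parental cells 1 of them was called, *Crabp1*, against 0.878% of all genes. In GRKO cells edgeR called 0 of 2 and 0% of all genes, with 237 genes (1.89%) at an unadjusted p under 0.05, and DESeq2 also called 0. Parental and GRKO cultures differed in their GC effect on 1 of 2, *Crabp1* again, against 0.295% of all genes called. Between GRKO and parental DMSO cultures 1 of 2 was called, *Crabp1*, against 8.22% of all genes. So few members do not speak for the set.

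Comparing control tumors with DMSO cultures, 2 of 3 members outside the picking that also passed the filter in cultures were called in parental samples, *Aldh1a3* and *Dhrs3*, higher in tumors, against 46.7% of all genes tested, genes that passed through tumors alone included. In GRKO samples all 3 were called, with *Crabp1*, also higher in tumors, against 54.8% of all genes. *Stra6*, *Aldh1a2* and *Rarb* are described without a test in these comparisons. Tumors hold host cells that cultures lack, and the comparison cannot tell RNA of host cells from a change in the melanoma cells. A test added after the data were seen asked whether the genotype difference itself differed between control tumors and DMSO cultures. It called *Crabp1* but not *Aldh1a3*, against 5.11% of all genes. A second added test set the GC effect in parental tumors against that in parental cells. There edgeR called neither gene, against 0.203% of all genes, and DESeq2 also called neither. Of these genes *Crabp1* alone had an unadjusted p under 0.05, as did 9.79% of all genes. *Dhrs3* is described without a test in both, because both use the parental DMSO cultures that helped it pass the filter.

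**Figure D2:**
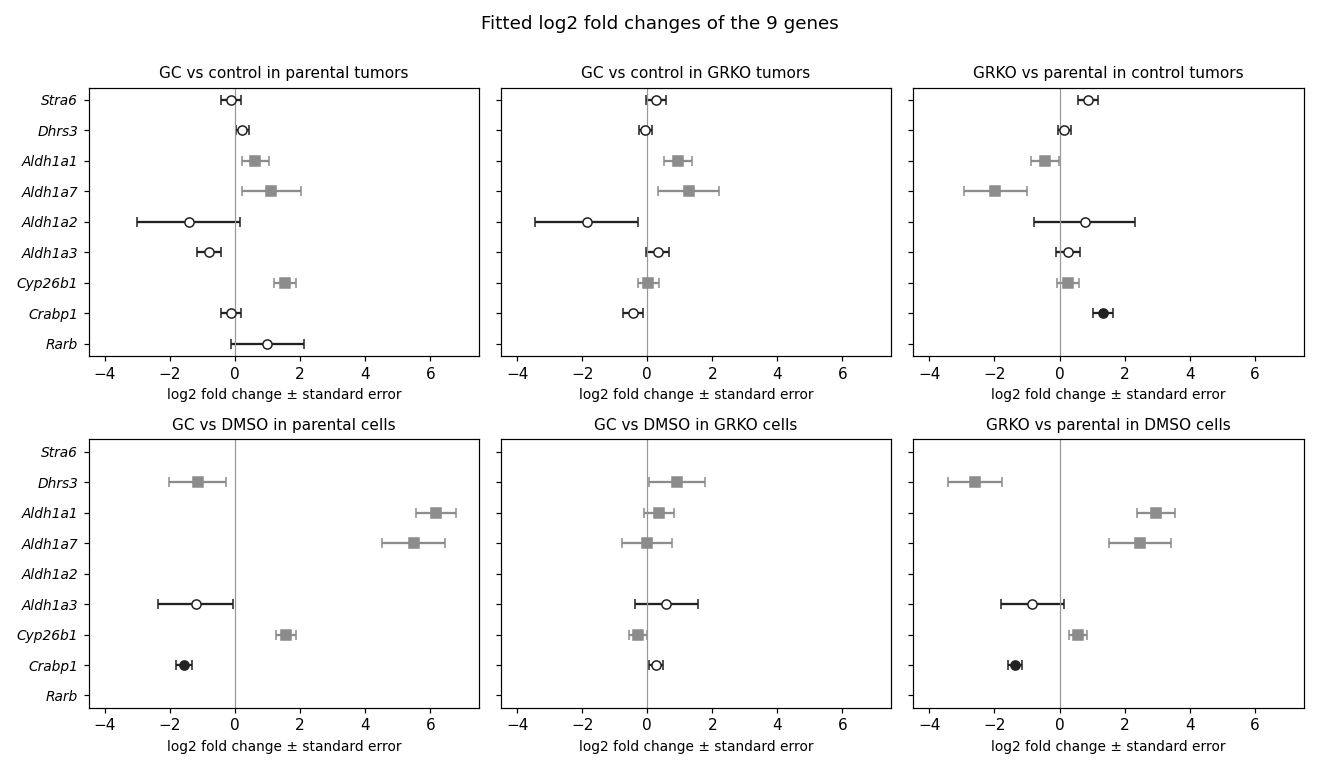
Log2 fold change ± SE of the members (vertical axis) in 6 comparisons, from edgeR. Filled black points were called, open points were not, and gray squares are values given without a test (*Aldh1a1*, *Aldh1a7*, *Cyp26b1* and, in cultures, *Dhrs3*); genes with too few counts for a fold are left out. *Crabp1* was called in 3 of the 6 comparisons, with log2 fold changes of 1.34 between genotypes of control tumors and -1.36 between genotypes of DMSO cultures.

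Host cells were followed with lists of marker genes, because the tumors are mixtures in which fewer cells of a type and less RNA per cell cannot be told apart. The 7 fibroblast genes summed to 3692 to 11336 CPM in tumors, with *Col3a1* the most abundant, and to 68.2 to 302 CPM in cultures. With GC 0 of 7 were called in parental tumors and 4 in GRKO tumors, all higher (*Col1a1*, *Col1a2*, *Col3a1*, *Pdgfra*), while GRKO control tumors had 1 lower (*Col3a1*) than parental ones. Their sum was nevertheless higher in every GC tumor than in every control tumor of its genotype, 7695 to 10726 against 6743 to 7471 CPM in parental and 7389 to 11336 against 3692 to 6572 CPM in GRKO tumors. Between DMSO cultures *Col1a1*, *Col3a1* and *Dcn* were lower in GRKO cells. *Dcn* was at 0 in GRKO cultures and so passed the filter through parental cultures alone. The 6 endothelial genes summed to 51.4 to 72.5 CPM in parental control tumors, 24.5 to 41.1 with GC, 95.7 to 116 in GRKO control tumors and 51.5 to 62.7 with GC, so no control tumor overlapped a GC tumor of its genotype. *Kdr*, the most abundant, was called lower with GC in GRKO tumors and higher in GRKO than parental control tumors, and 0 of 6 were called with GC in parental tumors. Endothelial sums in cultures were 1.07 to 4.83 CPM.

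Keratinocyte genes (7 listed) summed to 1184 to 3850.2 CPM in tumors, *Krt14* the most abundant, and 0.662 to 5.73 CPM in cultures, where *Krt1* and *Dsg3* were at 0. With GC 2 were higher in parental tumors (*Krt15*, *Lor*), 2 were higher (*Krt1*, *Krt10*) and 1 lower (*Krt14*) in GRKO tumors, and *Krt1* was lower in GRKO than parental control tumors. The 7 hair follicle and sebaceous gland genes summed to 55.5 to 386 CPM, *Krt79* the most abundant, with 0 of 6 tested called in any of these 3 comparisons, and 6 of 7 were at 0 in cultures. Adipocyte genes (6 listed) summed to 62.1 to 241 CPM in tumors, where the most abundant, *Cfd*, was lower with GC in GRKO tumors and the only one called. In cultures they reached at most 5.52 CPM, with *Plin1*, *Cidec*, *Lep* and *Cfd* at 0. The 5 skeletal muscle genes summed to 204 to 560.3 CPM in tumors, *Acta1* the most abundant, with *Myh4* lower with GC in GRKO tumors and no other call, and to 1.19 to 5.79 CPM in cultures, where *Ckm*, *Myh4* and *Myh1* were at 0.

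Among immune cells, 6 monocyte and macrophage genes summed to 3265 to 8842 CPM in tumors, *C1qa* the most abundant, with *Mrc1* higher with GC in GRKO tumors as the only call, and to 1.03 to 3.99 CPM in cultures with *Adgre1* at 0. The 6 dendritic genes summed to 30.8 to 187 CPM in tumors, where the most abundant, *Itgax*, was lower with GC in GRKO tumors and higher in GRKO than parental control tumors. In cultures they reached at most 0.195 CPM, with *Flt3*, *Xcr1* and *Cd209a* at 0. Neutrophil genes (5 listed) summed to 9.37 to 1275 CPM in tumors, *S100a8* the most abundant, with *Ly6g* at 0. With GC *S100a8* and *S100a9* were lower in parental tumors and no gene of this list was called in GRKO tumors. The median neutrophil sum was 66.3 CPM in parental control tumors, whose highest tumor was at 1275 CPM, and 14.4 CPM with GC. In GRKO tumors the medians were 426 CPM with control cream and 136 CPM with GC. In cultures *S100a9*, *Ly6g* and *Retnlg* were at 0. The 5 T lymphocyte genes summed to 45.7 to 257 CPM in tumors, *Cd2* the most abundant, with *Cd2* and *Cd3d* lower with GC in GRKO tumors, and all were at 0 in the 11 cultures. Over all 67 marker genes, edgeR called 4 of 62 tested with GC in parental tumors, against 0.779% of all genes. Of the 62, 22 had an unadjusted p under 0.05, against 14.1% of all genes. DESeq2 called 8 of them, and 376 genes in all. The marker calls of edgeR with GC in GRKO tumors are each named above, beside 6.42% of all genes called. In cultures edgeR called 0 of 12 with GC in parental cells, against 0.878% of all genes. Of these 12, 1 had an unadjusted p under 0.05, against 8.48% of all genes, and DESeq2 called 0. The marker genes named as called were chosen for naming after their values were seen. Besides the fibroblast and endothelial sums, those of adipocyte, dendritic and T lymphocyte genes separated GRKO control from GRKO GC tumors, all lower with GC, and no other list separated control from GC tumors of a genotype. The part of these cells in the members' values was not tested.

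*Stra6* (ENSMUSG00000032327, GRCm38 chromosome 9, 58063788 to 58153996, plus strand) encodes the membrane receptor through which cells take up retinol from its carrier in blood. Control tumors were at 5.79, 9.16, 9.62, 7.68 and 12.9 CPM when parental and 17.7, 18.3, 17.6, 8.61 and 21.6 CPM when GRKO. GC tumors were at 8.83, 9.94, 4.24, 9.26 and 9.57 CPM when parental and 16.9, 18.9, 25.4, 29.4 and 10.5 CPM when GRKO. Of the 5 GRKO control tumors, 4 lay above every parental control tumor and replicate 4 lay among them. The log2 difference between these groups was 0.89 (SE 0.31, adjusted p = 0.119 from edgeR), which passed the threshold only without GRKO control tumor 4 (log2 difference 1.05, adjusted p = 0.0296 from edgeR). GC left both genotypes within their spread, with log2 fold changes of -0.11 (SE 0.31, adjusted p = 0.912 from edgeR) in parental and 0.27 (SE 0.31, adjusted p = 0.622 from edgeR) in GRKO tumors. By mean the tumor groups ranked GRKO GC (20.2 ± 7.39 CPM), GRKO control (16.8 ± 4.85), parental control (9.04 ± 2.64) and parental GC (8.37 ± 2.34; SD, n = 5 each), and neighbors in this order overlapped.

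Cultures held almost no *Stra6* reads, 0 in 10 of 11 and 3 counts in parental DMSO culture 3. In the joint scaling parental control tumors were 149-fold higher than parental DMSO cultures (95% counting interval 50.7 to 722, from 958 and 3 counts). GRKO control tumors, with 1380 counts, were at least 304-fold higher than GRKO DMSO cultures taken at a floor of 3 counts over the group. All 5 control tumors of each genotype lay above its 3 cultures. *Stra6* overlaps *Ccdc33* on the other strand and *Gm16131* on its own, and both of these had 0 counts in every library.

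*Dhrs3* (ENSMUSG00000066026, chromosome 4, 144892827 to 144928209, plus strand) encodes a reductase that turns retinal back into retinol and so lowers the supply for retinoic acid. Its tumor levels were narrow, 38.4 to 57.1 CPM in parental control, 37.0 to 86.4 in parental GC, 48.0 to 72.7 in GRKO control and 48.6 to 56.7 in GRKO GC tumors, and all 4 groups overlapped. The log2 fold change with GC was 0.22 (SE 0.20, adjusted p = 0.652 from edgeR) in parental tumors and -0.07 (SE 0.20, adjusted p = 0.873 from edgeR) in GRKO tumors, and the genotype difference in control tumors was 0.14 (SE 0.20, adjusted p = 0.719 from edgeR). Parental DMSO cultures were at 1.56, 1.54 and 0.999 CPM, parental GC cultures at 0.483 and 0.723, GRKO DMSO cultures at 0, 0.286 and 0.377 and GRKO GC cultures at 0.684, 0.378 and 0.189. The 3 parental DMSO cultures lay above the other 8, where parental GC cultures lay above GRKO DMSO cultures and GRKO GC cultures overlapped both, on counts of at most 25 per culture.

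Between GRKO and parental DMSO cultures the *Dhrs3* log2 difference was -2.59 (SE 0.84), with all 3 GRKO cultures below all 3 parental ones. With GC the log2 fold change was -1.16 (SE 0.88) in parental and 0.90 (SE 0.86) in GRKO cells. Control tumors exceeded DMSO cultures by a log2 fold change of 5.14 (SE 0.38, adjusted p = 2.19e-12 from edgeR) when parental and 7.88 (SE 0.46, adjusted p = 6.65e-15 from edgeR) when GRKO, with every tumor above every culture. The genotype difference was larger in control tumors than in DMSO cultures by 2.74 (SE 0.54), a difference between a value near 0 and a negative one. It is given without a test, because it rests on the parental DMSO cultures that helped *Dhrs3* pass the filter.

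*Aldh1a1* (ENSMUSG00000053279, chromosome 19, 20492715 to 20643465, plus strand) encodes a cytosolic dehydrogenase that oxidizes retinal to retinoic acid. *Aldh1a7* (ENSMUSG00000024747, chromosome 19, 20692953 to 20727562, minus strand) is its rodent paralog, whose enzyme has been found to oxidize other aldehydes and retinal poorly or not at all. The genes lie 49487 bases apart with 0 annotated genes between them. Their transcripts are 88.0% identical over the whole length and 79.5% over the last 500 bases, where 3′ reads fall. Of the 451 windows of 50 bases in that last stretch of *Aldh1a1*, 0 occur in the same stretch of *Aldh1a7*, against 151 of 2309 over the whole transcript. Counting the pair as 1 gene changed no call of another member.

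In parental cultures *Aldh1a1* was at 0.780, 0 and 0.470 CPM with DMSO and 31.4 and 29.0 CPM with GC. GRKO cultures were at 3.43, 2.77 and 3.61 CPM with DMSO and 2.91, 4.91 and 4.73 CPM with GC. Both parental GC cultures were above the other 9, the parental DMSO cultures were below the other 8, and the GRKO groups overlapped. The log2 fold change with GC was 6.17 (SE 0.62) in parental cells and 0.36 (SE 0.47) in GRKO cells, a difference of 5.81 (SE 0.77). By mean the order was parental GC (30.2 ± 1.72 CPM, SD, n = 2), GRKO GC (4.18 ± 1.11, n = 3), GRKO DMSO (3.27 ± 0.442, n = 3) and parental DMSO (0.417 ± 0.393, n = 3), with only the GRKO neighbors overlapping.

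GRKO DMSO cultures exceeded parental DMSO cultures in *Aldh1a1* by a log2 difference of 2.96 (SE 0.58), higher in 3 of 3 cultures, and by 2.39 to 3.73 when each culture was left out. The parental DMSO cultures, with 12, 0 and 8 counts, are also the base of the rise by which the gene was picked.

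*Aldh1a1* in parental tumors was at 4.27, 4.03, 2.31, 5.57 and 3.50 CPM with control cream and 6.79, 3.45, 7.25, 5.91 and 7.01 CPM with GC. GRKO tumors were at 1.54, 2.75, 3.76, 5.29 and 1.04 CPM with control cream and 6.60, 5.23, 2.34, 8.10 and 5.40 CPM with GC. In parental tumors 4 of 5 GC values lay above every control value and replicate 2 lay among the controls, and in GRKO tumors 3 of 5 did. The log2 fold changes with GC were 0.63 (SE 0.42) and 0.94 (SE 0.43), and their difference of -0.31 (SE 0.60) was smaller than its SE. The 4 group means, from 2.88 ± 1.71 CPM in GRKO control to 6.08 ± 1.55 CPM in parental GC tumors (SD, n = 5 each), had ranges that all overlapped. Genotypes of control tumors differed by a log2 value of -0.44 (SE 0.43).

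Parental control tumors had more *Aldh1a1* than parental DMSO cultures by a log2 fold change of 3.19 (SE 0.63), with 5 of 5 tumors above the cultures. In GRKO samples this value was -0.20 (SE 0.52), and the groups overlapped. The genotype difference was lower in control tumors than in DMSO cultures by -3.38 (SE 0.79). These comparisons too rest on the parental DMSO cultures that the picking used.

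*Aldh1a7* in parental cultures was at 0, 0.554 and 0 CPM with DMSO and 7.38 and 9.80 CPM with GC. In GRKO cultures it was at 1.35, 0.429 and 1.40 CPM with DMSO and 1.08, 0.567 and 1.51 CPM with GC. As for its paralog, both parental GC cultures lay above the other 9, and the GRKO groups overlapped. The log2 fold change with GC was 5.49 (SE 0.97) in parental cells, resting on 9 counts in 1 of the 3 DMSO cultures, and -0.01 (SE 0.77) in GRKO cells, a difference of 5.50 (SE 1.24). GRKO and parental DMSO cultures differed by 2.47 (SE 0.95).

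Tumors held little *Aldh1a7*. Parental tumors were at 1.15, 2.01, 0.360, 0.812 and 0.670 CPM with control cream and 3.16, 1.47, 1.81, 2.46 and 1.99 CPM with GC. GRKO tumors were at 0, 0, 0, 0.772 and 0.430 CPM with control cream and 0.267, 0.593, 0.360, 0.847 and 0.999 CPM with GC. Of the 5 GC tumors of each genotype 2 lay above all controls, and 3 of the 5 GRKO control tumors had 0 counts. The log2 fold changes with GC were 1.12 (SE 0.92) and 1.27 (SE 0.95), with a difference of -0.15 (SE 1.20). By mean the order was parental GC (2.18 ± 0.657 CPM), parental control (1.00 ± 0.633), GRKO GC (0.613 ± 0.311) and GRKO control (0.240 ± 0.351; SD, n = 5 each), and neighbors overlapped. The genotype difference in control tumors was -1.97 (SE 0.96).

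Against DMSO cultures, control tumors differed in *Aldh1a7* by 2.36 (SE 1.11) when parental and -2.02 (SE 0.96) when GRKO, a difference of -4.38 (SE 1.48). Few counts and the 9 in parental DMSO culture 2 carry these values.

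The annotated starts of this gene pair are printed because the paralogs share sequence there. In the RefSeq promoter table of GRCm38.p6, which gives 250 bases before to 50 after a start, *Aldh1a1* has 2 entries. The nearer one to *Aldh1a7* (chr19:20601718-20602017, plus strand) is 71.1% identical to the *Aldh1a7* promoter (chr19:20727507-20727806, minus strand) and matches it at 142 of the last 150 bases (94.7%). The other *Aldh1a1* entry is 52.6% identical overall and 29.3% over those bases. Both sequences run 5′ to 3′ on their gene's strand, and none of the motifs searched occurs in them.
Aldh1a1: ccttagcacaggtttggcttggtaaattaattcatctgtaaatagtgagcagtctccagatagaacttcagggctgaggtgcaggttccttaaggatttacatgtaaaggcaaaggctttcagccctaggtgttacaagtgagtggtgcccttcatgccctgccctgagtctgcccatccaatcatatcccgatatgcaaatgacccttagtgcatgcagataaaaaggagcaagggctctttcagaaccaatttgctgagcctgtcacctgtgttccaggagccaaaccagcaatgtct
Aldh1a7: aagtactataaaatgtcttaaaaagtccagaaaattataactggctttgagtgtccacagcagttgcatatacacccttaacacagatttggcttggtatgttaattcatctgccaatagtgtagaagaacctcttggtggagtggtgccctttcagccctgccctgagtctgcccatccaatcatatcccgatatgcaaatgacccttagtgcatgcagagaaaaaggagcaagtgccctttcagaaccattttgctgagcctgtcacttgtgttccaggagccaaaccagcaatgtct

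*Aldh1a2* (ENSMUSG00000013584, chromosome 9, 71215789 to 71296243, plus strand) encodes the retinal dehydrogenase that makes most retinoic acid in the early embryo. It had 0 counts in all 11 cultures. Parental tumors were at 0.764, 0.192, 0.926, 0.379 and 0.410 CPM with control cream and 0.612, 0, 0.354, 0 and 0 CPM with GC. GRKO tumors were at 2.86, 0, 0, 1.66 and 0.0614 CPM with control cream and 0.0446, 0, 0, 0 and 1.18 CPM with GC. The highest levels were in single tumors, GRKO control replicates 1 and 4 and GRKO GC replicate 5, and 8 of the 20 tumors had none.

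No *Aldh1a2* difference among tumors exceeded this spread: the log2 fold change was -1.43 (SE 1.59, adjusted p = 0.738 from edgeR) with GC in parental tumors, -1.87 (SE 1.59, adjusted p = 0.497 from edgeR) with GC in GRKO tumors and 0.77 (SE 1.55, adjusted p = 0.813 from edgeR) between control genotypes. Against cultures at a floor of 3 counts over the group, parental control tumors were at least 8.06-fold higher. GRKO control tumors were at least 18.3-fold higher, a bound that rests on replicates 1 and 4, with 39 and 43 of the 83 counts.

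*Aldh1a3* (ENSMUSG00000015134, chromosome 7, 66390890 to 66427517, minus strand) encodes another retinal dehydrogenase, active in epithelia. Parental tumors were at 53.1, 69.0, 41.5, 39.3 and 41.5 CPM with control cream and 16.5, 70.6, 17.6, 12.8 and 22.2 CPM with GC. GRKO tumors were at 49.9, 87.3, 34.5, 40.8 and 80.0 CPM with control cream and 61.9, 89.1, 74.1, 91.6 and 47.5 CPM with GC. In parental GC tumors 4 of 5 values lay below every other tumor, while replicate 2, the tumor that also stood apart in *Tsc22d3*, lay above every parental control. The log2 fold change with GC was -0.81 (SE 0.37, adjusted p = 0.319 from edgeR) in parental tumors, and without replicate 2 it was -1.50 (adjusted p = 0.0125 from edgeR), which passes the threshold. With all tumors kept the adjusted p was 0.0837 to 0.322 over 9 other settings.

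In GRKO tumors the *Aldh1a3* log2 fold change with GC was 0.32 (SE 0.36, adjusted p = 0.629 from edgeR). The GC effects of the genotypes differed by -1.12 (SE 0.52, adjusted p = 0.225 from edgeR) without a call, and by -1.82 to -0.94 with adjusted p of 0.0669 or more from edgeR when each tumor was left out. Control genotypes differed by 0.26 (SE 0.36, adjusted p = 0.719 from edgeR). By mean the order was GRKO GC (72.8 ± 18.5 CPM), GRKO control (58.5 ± 23.7), parental control (48.9 ± 12.5) and parental GC (27.9 ± 24.1; SD, n = 5 each), and neighbors overlapped. Cultures ranged from 0 to 1.13 CPM, at most 24 counts, and neither GC nor genotype was past the threshold there (adjusted p = 0.735, 0.976 and 0.616 from edgeR). Every control tumor exceeded every DMSO culture, by a log2 fold change of 6.04 (SE 0.66, adjusted p = 7.43e-09 from edgeR) in parental and 7.15 (SE 0.71, adjusted p = 5.94e-10 from edgeR) in GRKO samples.

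*Cyp26b1* (ENSMUSG00000063415, chromosome 6, 84571414 to 84593908, minus strand) encodes a P450 enzyme that hydroxylates retinoic acid and so inactivates it. Parental tumors were at 104, 248, 71.6, 113 and 136 CPM with control cream and 228, 403, 648, 272 and 408 CPM with GC. GRKO tumors were at 184, 169.8, 94.0, 169 and 193 CPM with control cream and 253, 236, 128, 96.1 and 114 CPM with GC. In parental tumors 4 of 5 GC values exceeded every control and replicate 1 lay below the highest control, and in GRKO tumors 2 of 5 GC values exceeded every control and 3 lay among them. The log2 fold change with GC was 1.54 (SE 0.34) in parental and 0.03 (SE 0.33) in GRKO tumors, a difference of 1.51 (SE 0.47). By mean the order was parental GC (392 ± 163 CPM), GRKO GC (165 ± 73.4), GRKO control (162 ± 39.2) and parental control (135 ± 67.7; SD, n = 5 each), the first 2 overlapped where parental GC tumor 1 lay below GRKO GC tumors 1 and 2, and the last 3 did not differ beyond their spread.

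In parental cultures *Cyp26b1* was at 40.1, 35.0 and 46.6 CPM with DMSO and 120.4 ± 41.8 CPM (SD, n = 2) with GC. GRKO cultures were at 49.2, 54.0 and 77.7 CPM with DMSO and 32.3, 51.4 and 64.4 CPM with GC. Both parental GC cultures lay above the other 9, and the GRKO groups overlapped. The log2 fold change with GC was 1.57 (SE 0.30) in parental and -0.29 (SE 0.27) in GRKO cells, a difference of 1.86 (SE 0.40). Set beside the tumors, the parental GC effect differed by -0.04 (SE 0.55) in the joint fit. For comparison, that difference was -5.54 (SE 0.84) for *Aldh1a1* and -4.38 (SE 1.50) for *Aldh1a7*, each lower in tumors than in cultures.

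Without drug the genotypes differed in *Cyp26b1* by log2 values of 0.26 (SE 0.33) in control tumors and 0.57 (SE 0.27) in DMSO cultures. The 3 GRKO DMSO cultures all lay above the 3 parental ones. Control tumors exceeded DMSO cultures by a log2 fold change of 1.69 (SE 0.39) when parental and 1.39 (SE 0.38) when GRKO, with all tumors above all cultures of their genotype. As above, control tumors and DMSO cultures are shared with the comparison that picked the gene.

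*Crabp1* (ENSMUSG00000032291, chromosome 9, 54764748 to 54773110, plus strand) encodes a cytosolic protein that binds retinoic acid. Parental tumors were at 78.8, 146, 96.0, 81.4 and 202 CPM with control cream and 48.6, 181, 115, 137 and 76.1 CPM with GC. GRKO tumors were at 348, 282, 329, 172 and 399 CPM with control cream and 187, 246, 191, 272 and 236 CPM with GC. Of the 5 GRKO control tumors 4 exceeded every parental control tumor and replicate 4, at 172 CPM, lay below the highest of them. GRKO control tumors were higher by a log2 difference of 1.34 (SE 0.31, adjusted p = 0.0288 from edgeR). The value stayed at 1.22 to 1.61 when each control tumor was left out, but the call was lost in 7 of 10 fits, without parental control tumors 1, 2, 3 and 4 or GRKO control tumors 1, 2 and 5 (adjusted p = 0.0503 to 0.0759 from edgeR). With GC the log2 fold change was -0.12 (SE 0.30, adjusted p = 0.904 from edgeR) in parental and -0.44 (SE 0.30, adjusted p = 0.389 from edgeR) in GRKO tumors.

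In parental cultures *Crabp1* was at 138, 186 and 134 CPM with DMSO and 49.9 and 52.1 CPM with GC. GRKO cultures were at 55.3, 50.4 and 72.9 CPM with DMSO and 53.8, 70.6 and 90.7 CPM with GC. The 3 parental DMSO cultures lay above the other 8, where GRKO GC cultures lay above parental GC cultures and GRKO DMSO cultures overlapped both. In parental cells *Crabp1* fell with GC, lower in 2 of 2 cultures, by a log2 fold change of -1.58 (SE 0.25, adjusted p = 0.0100 from edgeR). With 1 GC culture left, assumed to vary like the other groups, the value was -1.61 to -1.55 and not called (adjusted p = 0.143 to 0.169 from edgeR). In GRKO cells the log2 fold change was 0.27 (SE 0.21, adjusted p = 0.976 from edgeR).

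The GC effect on *Crabp1* differed between parental and GRKO cells by -1.85 (SE 0.32, adjusted p = 0.0410 from edgeR). The replicate number as a block gave -1.76 (adjusted p = 0.0727 from edgeR), not past the threshold, and the adjusted p ran from 4.06e-05 to 0.0727 over 8 other settings. Leaving out 1 culture lost the call in 9 of 11 fits, without parental DMSO cultures 1, 2 and 3, parental GC cultures 1 and 2, GRKO DMSO cultures 1 and 2 or GRKO GC cultures 2 and 3 (log2 difference -1.94 to -1.65, adjusted p = 0.0638 to 0.278 from edgeR). Against the parental tumors, the GC effect in tumors minus that in cells was 1.45 (SE 0.48, adjusted p = 0.362 from edgeR).

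*Crabp1* differed between genotypes in opposite directions in tumors and cultures. GRKO DMSO cultures were lower than parental ones in 3 of 3 cultures, by a log2 difference of -1.36 (SE 0.21, adjusted p = 0.00200 from edgeR) that was called in every fit that left out a culture (-1.53 to -1.18). The genotype difference in control tumors minus that in DMSO cultures was 2.70 (SE 0.45, adjusted p = 0.000128 from edgeR). Parental control tumors and DMSO cultures overlapped, with a log2 value of -0.38 (SE 0.31, adjusted p = 0.311 from edgeR), while all 5 GRKO control tumors exceeded the GRKO DMSO cultures, with 2.32 (SE 0.34, adjusted p = 1.10e-06 from edgeR). In order of mean, tumors ranked GRKO control (306 ± 85.9 CPM), GRKO GC (226 ± 36.7), parental control (121 ± 52.9) and parental GC (111 ± 51.6; SD, n = 5 each), and neighbors overlapped. Cultures ranked parental DMSO (153 ± 29.1 CPM, SD, n = 3) above GRKO GC (71.7 ± 18.5, n = 3), GRKO DMSO (59.5 ± 11.8, n = 3) and parental GC (51.0 ± 1.54, n = 2); GRKO DMSO cultures overlapped both the GRKO GC and the parental GC cultures.

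*Rarb* (ENSMUSG00000017491, chromosome 14, 16430839 to 16819156, minus strand) encodes retinoic acid receptor beta, a receptor whose gene is itself a direct target of retinoic acid. Counts in parental tumors were 14, 14, 4, 3 and 0 with control cream and 28, 7, 16, 12 and 13 with GC. Counts in GRKO tumors were 0, 0, 0, 1 and 1 with control cream and 31, 5, 20, 0 and 23 with GC. Of the 5 GRKO GC tumors 4 lay above every GRKO control tumor and replicate 4 had no read. The summed counts of 79 and 2 give a ratio of 33.1 (95% counting interval 8.86 to 278) for GC over control in GRKO tumors, called with adjusted p = 0.0405 from edgeR.

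This *Rarb* call was lost with the replicate number as a block (adjusted p = 0.0891 from edgeR), without a filter on low counts (adjusted p = 0.0568 from edgeR) and with the compared groups fitted alone (adjusted p = 0.113 from edgeR), within a range of 0.00919 to 0.113 over 9 other settings. It was also lost in 6 of 10 fits that left out a tumor, without GRKO control tumors 1, 2 and 3 or GRKO GC tumors 1, 3 and 5 (adjusted p = 0.0712 to 0.0915 from edgeR). In parental tumors the log2 fold change with GC was 0.99 (SE 1.12, adjusted p = 0.744 from edgeR), with 1 of 5 GC tumors above every control, and the GC effects of the genotypes did not differ past the threshold (adjusted p = 0.221 from edgeR). *Rarb* shares 4624 bases at its 3′ end with *Top2b* on the other strand, which had 969 to 4526 counts per library. The methods name no strand option for counting, and the defaults they otherwise state would count without strand. Reads in the shared bases could then be counted for *Rarb*, for *Top2b* or for neither, and *Rarb* may be undercounted, which was not tested. Libraries in which *Rarb* had 0 counts held at least 969 counts of *Top2b*.

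Between control tumors *Rarb* had 2 counts in the GRKO and 35 in the parental group, 15.1-fold lower (95% counting interval 3.87 to 129), which was not called (adjusted p = 0.121 from edgeR). Its cultures had 0 to 2 counts each. Parental control tumors were at least 5.43-fold higher than parental DMSO cultures taken at 3 counts over the group, with 4 of 5 tumors above all cultures. GRKO control tumors and GRKO DMSO cultures both had 2 counts, so no fold was given.

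Promoters of 8 of the 9 members, 14 in all, were in the RefSeq table, and *Aldh1a3* had no entry. They were searched on both strands for AGAACA, a hexamer of glucocorticoid response elements, and for AGGTCA and GGTTCA, hexamers of retinoic acid response elements. Of the 14 promoters 3 held AGAACA, *Stra6* at 2 starts and *Dhrs3* at 1, against 19.0% of the 32851 promoters in the table. AGGTCA was in 0 of 14, against 16.3% of all. GGTTCA was in 1, that of *Rarb*, against 10.4% of all. The *Rarb* promoter (chr14:16575427-16575726, minus strand, GRCm38.p6) is shown 5′ to 3′ because this receptor gene is the textbook target of its own ligand, with the match in capitals.
Rarb: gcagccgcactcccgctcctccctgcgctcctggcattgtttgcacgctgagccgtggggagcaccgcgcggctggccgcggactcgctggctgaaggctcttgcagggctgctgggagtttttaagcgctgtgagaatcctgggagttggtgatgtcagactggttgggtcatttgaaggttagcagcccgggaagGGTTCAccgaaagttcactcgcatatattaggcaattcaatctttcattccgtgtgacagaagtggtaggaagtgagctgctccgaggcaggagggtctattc

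Across the 20 tumors, levels were compared as log2(CPM + 1) after taking away each group's mean. These relations share libraries and depth, carry no p, and describe tumors only. Of the 36 pairs of members, 2 had an r beyond 0.5 in size, *Aldh1a2* with *Stra6* (r = -0.52, rho = -0.50) and *Rarb* with *Crabp1* (r = -0.53, rho = -0.49). *Aldh1a1* and *Aldh1a7* had r = 0.37 and rho = 0.27.

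Members were also set against the summed marker lists, 99 relations in all, of which 9 had an r beyond 0.5 in size. *Aldh1a1* followed the adipocyte sum (r = 0.74, rho = 0.65, and r = 0.71 without the 2 farthest tumors) and the endothelial sum (r = 0.53, rho = 0.47, and r = 0.53 without the 2 farthest tumors). *Crabp1* ran opposite to the endothelial sum (r = -0.63, rho = -0.63, and r = -0.61 without the 2 farthest tumors) and the skeletal muscle sum (r = -0.60, rho = -0.50, and r = -0.42 without the 2 farthest tumors). *Stra6* followed the neutrophil sum (r = 0.59, rho = 0.67, and r = 0.66 without the 2 farthest tumors) and the keratinocyte sum (r = 0.52, rho = 0.59, and r = 0.54 without the 2 farthest tumors). *Aldh1a3* ran opposite to the skeletal muscle sum (r = -0.61, rho = -0.43, and r = -0.45 without the 2 farthest tumors). Its relation to the endothelial sum (r = -0.54, rho = -0.35, and r = -0.21 without the 2 farthest tumors) and that of *Dhrs3* to the macrophage sum (r = 0.60, rho = 0.46, and r = 0.26 without the 2 farthest tumors) rest on those tumors. The part of these cell types in the members' levels was not tested.

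Genes most like 3 members over the 20 tumors were ranked by this r among 10224 genes with a mean of at least 5 CPM (10223 for *Cyp26b1*, itself above that mean), and are listed with r, rho and r without the 2 farthest tumors. For *Aldh1a1* they were *Mdm2* (0.71, 0.72, 0.65), *Pick1* (0.70, 0.64, 0.72), *Tubgcp4* (0.70, 0.58, 0.60), *Glul* (0.70, 0.62, 0.65) and *Atxn7l1* (0.69, 0.69, 0.76). Genes close to *Aldh1a2* included *Ubr7* (0.80, 0.76, 0.70), *Idh3b* (0.78, 0.76, 0.64), *M6pr* (0.77, 0.66, 0.56) and *Anxa9* (0.77, 0.68, 0.81), on a level that was 0 in 8 tumors. Nearest to *Cyp26b1* were *Pls3* (0.85, 0.81, 0.81), *Sec61a1* (0.82, 0.83, 0.74), *Ube2d3* (0.80, 0.84, 0.70), *Slc41a2* (0.79, 0.77, 0.78) and *Eif3a* (0.76, 0.67, 0.65). The highest of so many values are high by their ranking.

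A list of the wider pathway held 57 further genes, for retinol uptake and storage, retinol and retinal dehydrogenases, binding proteins, receptors, corepressors and known targets. Of these, 41 were tested in tumors and 27 in cultures. With GC 1 of 41 was called in parental tumors, higher, against 0.779% of all genes, and the list's median log2 fold change of 0.07 compares with 0.00 over all genes. In GRKO tumors 1 was higher and 3 lower, against 6.42% of all genes called (median -0.00, all genes 0.05). The GC effects of the tumor genotypes differed for 0 of 41 in edgeR, against 0.195% of all genes (median 0.05, all genes -0.04). Of the 41, 9 had an unadjusted p under 0.05, against 20.1% of all genes. DESeq2 called 5 of them, and 784 genes in all. GRKO control tumors had 2 higher than parental ones, against 2.25% of all genes (median -0.02, or -0.07 without 1 gene of too few counts for a fold, all genes -0.04).

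In parental cells 3 of 27 were higher with GC, against 0.878% of all genes called (median -0.02, all genes -0.00), and in GRKO cells 0 were called, against 0% (median -0.00, all genes 0.02). Their GC effects differed for 1 gene, larger in parental cells, against 0.295% of all genes (median -0.02, all genes -0.03). Between DMSO cultures 3 were lower in GRKO cells, against 8.22% of all genes called (median -0.21, all genes 0.01). Among the 27, control tumors against DMSO cultures gave 13 higher and 5 lower when parental, against 46.7% of all genes called, and 14 higher and 6 lower when GRKO, against 54.8%, shares that include genes tested through tumors alone; the 14 such genes of the list are not counted. Of the 15 other aldehyde dehydrogenases 1 was called in these comparisons outside tumors against cultures, *Aldh3a1* (named after its value was seen), lower in GRKO than parental DMSO cultures by a log2 value of -3.61 (SE 0.38, adjusted p = 0.000181 from edgeR), while of 12 also tested in cultures, beside the same shares of all genes, 2 were higher and 4 lower in parental control tumors than cultures and 1 higher and 3 lower in GRKO ones.

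Pathway genes called outside the comparison of tumors with cultures are given by name. *Dhrs9*, a retinol dehydrogenase, was at 7.02, 6.59 and 7.28 CPM in parental DMSO and 28.3 and 29.6 CPM in parental GC cultures, higher in 2 of 2, with a log2 fold change of 2.05 (SE 0.29, adjusted p = 0.00551 from edgeR) that was not called without parental GC cultures 1 and 2 (adjusted p = 0.0607 to 0.0743 from edgeR). *Fabp5*, which can carry retinoic acid, was higher with GC in parental cells by 1.41 (SE 0.26, adjusted p = 0.0269 from edgeR), not called in 4 of 5 fits, without parental DMSO cultures 1 and 2 or parental GC cultures 1 and 2, nor with the replicate block (adjusted p = 0.0908 from edgeR) or the compared groups alone (adjusted p = 0.0924 from edgeR).

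*Tgm2*, a transglutaminase and known target of retinoic acid, rose with GC in parental cells by 1.48 (SE 0.17, adjusted p = 0.00141 from edgeR), from 83.5, 102 and 82.1 CPM to 234 and 263 CPM. Its GC effect differed between parental and GRKO cells by 1.33 (SE 0.24, adjusted p = 0.0465 from edgeR), lost in 9 of 11 fits that left out 1 culture, without parental DMSO cultures 1 and 3, parental GC cultures 1 and 2, GRKO DMSO cultures 1, 2 and 3 or GRKO GC cultures 1 and 2 (adjusted p = 0.0594 to 0.258 from edgeR), and lost with the replicate block (adjusted p = 0.0663 from edgeR). It was lower in GRKO than parental DMSO cultures by -0.72 (SE 0.16, adjusted p = 0.0162 from edgeR), not called without GRKO DMSO cultures 1 and 2. The receptor gene *Rarg* was lower in the same comparison by -0.76 (SE 0.21, adjusted p = 0.0404 from edgeR), not called without parental DMSO cultures 1 and 2 or GRKO DMSO cultures 1, 2 and 3, nor with the replicate block (adjusted p = 0.0633 from edgeR).

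In tumors *Nrip1*, a corepressor of nuclear receptors, rose with GC in parental tumors from 129.5, 179, 105, 153 and 111 CPM to 308, 329.7, 285, 269 and 321 CPM, a log2 fold change of 1.16 (SE 0.18, adjusted p = 0.00156 from edgeR). All 5 GC tumors lay above all 5 controls. Its value in GRKO tumors was 0.03 (SE 0.18, adjusted p = 0.934 from edgeR), and the difference of 1.13 (SE 0.25, adjusted p = 0.0560 from edgeR) between the genotypes was not past the threshold. *Rdh10*, the main retinol dehydrogenase of the embryo, rose with GC in GRKO tumors from 51.5, 28.2, 34.8, 44.9 and 39.1 CPM to 82.7, 76.6, 65.5, 69.4 and 61.0 CPM, a log2 fold change of 0.84 (SE 0.18, adjusted p = 0.00826 from edgeR), with no overlap.

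Lower with GC in GRKO tumors were *Rarres2*, a retinoid-responsive gene for a chemokine-like protein, by -1.44 (SE 0.32, adjusted p = 0.0105 from edgeR), *Dgat1*, which esterifies retinol, by -0.75 (SE 0.20, adjusted p = 0.0264 from edgeR), and the receptor gene *Rxrb* by -0.75 (SE 0.22, adjusted p = 0.0429 from edgeR). The last 2 of these calls were lost in 4 of 10 fits for *Dgat1*, without GRKO control tumors 1 and 5 or GRKO GC tumors 3 and 5, and in 7 of 10 for *Rxrb*, without GRKO control tumors 1, 2, 3 and 5 or GRKO GC tumors 1, 3 and 5. Higher in GRKO than parental control tumors were *Ncor1*, a corepressor, by 0.87 (SE 0.22, adjusted p = 0.0393 from edgeR), and *Dgat1* by 0.83 (SE 0.20, adjusted p = 0.0308 from edgeR). These were lost in 8 of 10 fits, without parental control tumors 1, 2, 3, 4 and 5 or GRKO control tumors 1, 2 and 5, and in 6 of 10 fits, without parental control tumors 1, 2, 3 and 4 or GRKO control tumors 1 and 5, in that order. With the compared groups fitted alone none of these calls of *Dgat1*, *Rxrb* and *Ncor1* held (adjusted p = 0.0650 to 0.106 from edgeR), and that of *Rxrb* was also lost without a filter on low counts (adjusted p = 0.0514 from edgeR).

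**Figure D3:**
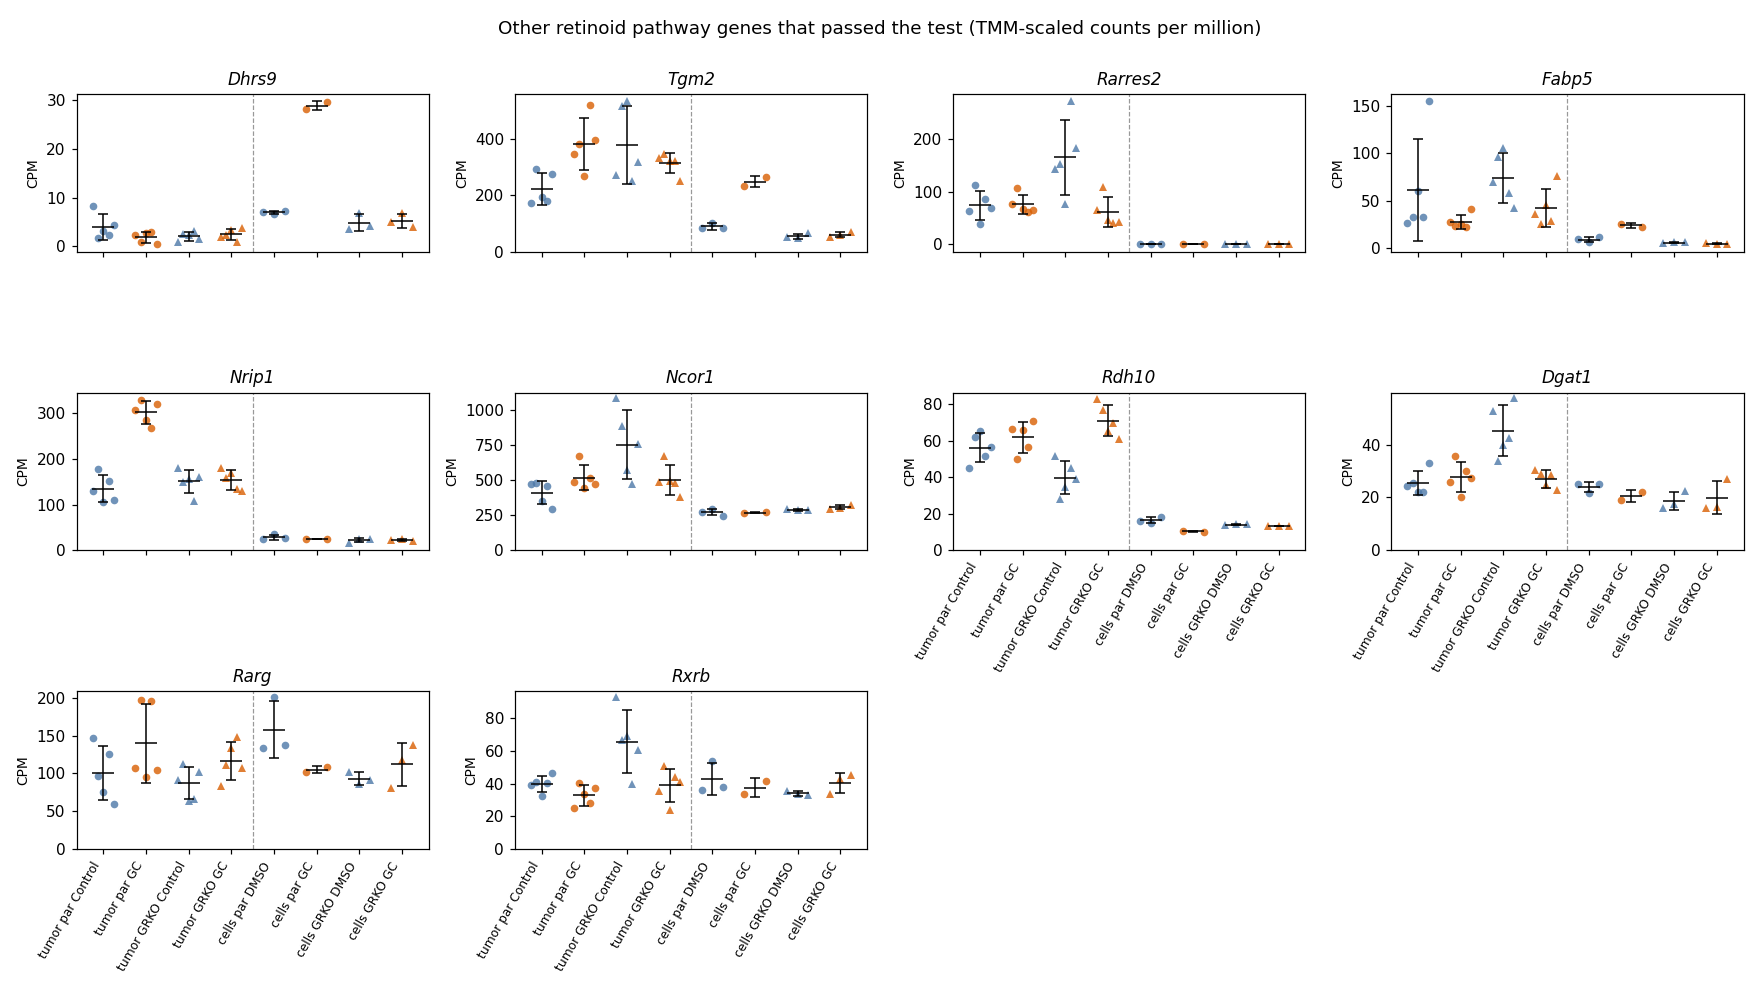
Level of 10 pathway genes (vertical axis, CPM) in every library, by group along the horizontal axis, with the same colors, symbols and bars of mean ± SD as the plot of the 9 members. *Nrip1* lay at 269 to 329.7 CPM in parental GC tumors and 105 to 180.1 CPM in the other tumors.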

How the data were processed

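Counts per gene from 3′ end libraries (QuantSeq FWD) of 31 samples were deposited by the authors, who used Trim Galore for trimming, STAR for alignment (GRCm38) and featureCounts with Ensembl annotation for counting. No strand option is named, and the methods' general use of defaults would mean counting without strand. The deposited counts are raw whole numbers, 1 library per column and none pooled. Samples were grouped by the labels into 8 groups.

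Members are the genes whose symbol in the counts equals a listed name. Members, pathway list and marker lists were chosen with earlier results of these data known. Genes named in the text are the 9 members, pathway genes called outside tumors against cultures (up to 12), 6 genes that check the labels, the genes most correlated (up to 5) with *Aldh1a1*, *Aldh1a2* and *Cyp26b1* over tumors, and each marker list's most abundant gene and genes at 0. All 7 melanocyte genes are named too. Some genes that meet these rules are not reported here. *Aldh3a1* and the marker genes named for a call were added after their values were seen.

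Fits used edgeR 4.0.16 in R 4.3.3, with TMM factors, the quasi-likelihood test and Benjamini-Hochberg adjustment over all genes with at least 0.5 CPM in at least 3 samples of the fit. Tumors and cultures were fitted separately, and a joint fit of 31 libraries served the tumor and culture comparisons. A pseudocount of 1 was used for correlations. Called means an adjusted p under 0.05 and a fold of at least 1.5. The test was tested on simulated data, where 75.5 to 83.5% of 200 genes given a log2 fold of 2 were called. The pass mark was lowered to 70% after a first run missed a mark of 80%. Since selection used the compared samples, tests were left out for the 3 picked genes, for *Stra6*, *Aldh1a2* and *Rarb* against cultures and for *Dhrs3* among cultures. They were also left out for *Dhrs3* where an effect in tumors was set against an effect in cultures. Where 1 group had at most 3 counts, ratios of summed counts over effective library sizes with exact 95% intervals replaced fitted folds. Tables and sequences were handled with Python 3.11.15, pandas 2.3.3, scipy 1.17.1 and biopython 1.88, and figures were drawn with matplotlib 3.10.9.

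Alternatives were DESeq2 1.42.0, its size factors within edgeR, no filter or 10 counts in 3 samples, no minimum fold or a fold of 2, the replicate number as a block, the compared groups alone, the paralogs summed, for correlations a pseudocount of 0.1 or leaving out the 2 farthest tumors, and leaving out each library. Replicates are separate tumors or cultures of 1 line, so p-values measure the spread between these samples. The names of the culture libraries all carry the same date, and the labels do not say whether cultures were separate experiments. Among cultures the p-values may therefore measure the spread between parallel cultures of the same day. Low counts, counting without strand and RNA of host cells can affect the values. No library was left out.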

Additional observations from a re-analysis of the deposited data

Results flagged for a closer look

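Of 36 combinations of a member with a tumor group of 5, 5 had a highest or lowest tumor whose gap to the nearest other, divided by the range of the group, both taken on log2(CPM + 1), exceeded Dixon's 95% critical value of 0.71, which chance exceeds in about 1 of 20. They were *Aldh1a1* in parental GC tumor 2 (3.45 CPM, lowest), *Aldh1a2* in GRKO GC tumor 5 (1.18 CPM, highest), *Cyp26b1* in GRKO control tumor 3 (94.0 CPM, lowest), and *Stra6* in parental GC tumor 3 (4.24 CPM, lowest) and GRKO control tumor 4 (8.61 CPM, lowest). The mark on *Aldh1a1*, barely past the value, concerns spread within 1 group and tests no effect of drug. No explanation was tested.

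Other results are effects that differed between groups by a test of the difference itself. The GC effect in parental minus GRKO cells differed for *Crabp1*, -1.85 (adjusted p = 0.0410 from edgeR), and *Tgm2*, 1.33 (adjusted p = 0.0465 from edgeR). Neither held with the replicate block (adjusted p = 0.0727 and 0.0663 from edgeR), and each was lost in 9 of 11 fits that left out a culture. The genotype effect in control tumors minus that in DMSO cultures, a comparison added after the data were seen, differed for *Crabp1*, 2.70 (adjusted p = 0.000128 from edgeR). It also differed for the pathway genes *Tgm2*, 1.48 (adjusted p = 0.00480 from edgeR), *Dgat1*, 1.20 (adjusted p = 0.0135 from edgeR), and *Rxrb*, 1.05 (adjusted p = 0.0486 from edgeR). For *Dhrs3* this value was 2.74, given without a test because it rests on the parental DMSO cultures that helped the gene pass the filter. The GC effect in parental tumors minus that in parental cells, likewise added, differed for *Nrip1*, 1.35 (adjusted p = 0.0406 from edgeR). Host cells are present in tumors alone, and their part in these differences was not tested.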

How the results depend on the processing

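None of 296 called values of members, pathway, marker and label check genes, the 3 picked genes set aside, reversed direction in 4955 refits. Many of these values compare control tumors with DMSO cultures. There 62 marker genes were tested and 12 passed the filter in cultures, so for many the direction was built into their selection. A setting that changes only the minimum fold keeps the fold itself. The absence of reversals is therefore no measure of stability for such values. Of 1420 gene values with 1 library left out, 1261 kept their call, their lack of one or their untested value, 98 lost a call, 9 gained one and 52 moved, of which 27 were tested values without a call that changed sign and 25 were untested values that shifted by 1 SD or more, counting comparisons that the text describes without a test. Of 1157 gene values under other settings, 1123 stayed, 22 lost and 10 gained a call, and 2 moved, both *Aldh1a7* with the replicate block: 1.73 with GC in GRKO tumors and -0.53 for the difference of GC effects. Of 30 values of the highest correlations, 25 stayed and 5 moved by 0.1 or more. Of 135 correlations among members and with marker sums, 20 changed sign without the 2 farthest tumors and 5 with a pseudocount of 0.1, all with r of at most 0.39 in size.

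The number of genes called was less stable. With 1 library left out it was 60 to 179 with GC in parental tumors (124 with all libraries), 303 to 2411 in GRKO tumors (1022), 0 to 1288 for the difference of GC effects (31) and 61 to 1762 between control genotypes (358). In cultures it was 31 to 78 with GC in parental cells (110), 0 to 0 in GRKO cells (0), 17 to 43 for the difference (37) and 594 to 916 between DMSO genotypes (1030). Control tumors against DMSO cultures gave 6438 to 7460 when parental (7595) and 7680 to 9266 when GRKO (8917). In the same order for the first 4, DESeq2 called 376, 1756, 784 and 1001 genes, and it called 251 with GC in parental cells and 128 for the difference in cells. A minimum fold of 2 left 583 with GC in GRKO tumors and 238 between control genotypes, where the compared groups alone gave 391 and 154, and 59 in parental cells. Without a filter on low counts the differences of GC effects gave 49 genes in tumors and 64 in cells. With the replicate block 144 genes differed in GC effect in tumors and 63 were called in parental cells. The highest numbers with GC in GRKO tumors, for the difference of GC effects and between control genotypes all came without GRKO control tumor 4, which stood apart from its group. The cause was not tested. Replicate numbers do not pair the samples: deviations of samples with the same number had r from -0.410 to 0.365 over 23 pairs, 8 of them above 0.1. The joint comparisons were not run with a replicate block. A fit with 1 parental GC culture left assumes that it varies like the other groups. Counts of 3 or fewer over a group set the limit for *Aldh1a2*, *Stra6* and *Rarb* in cultures.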
